A study of Mus musculus with 167 samples.

Results

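miR-335 is a microRNA (miRNA) of the imprinted Mest locus, and its 2 mature arms, mmu-miR-335-5p and mmu-miR-335-3p, are described here across the tissues of irradiated mice. They are 2 of the 1915 mature miRNAs counted in each library. Both were chosen by their difference between irradiated and sham lungs, which is therefore given as a description without a test. The study exposed C3Hf/Sed/Kam (C3H) and C57Bl/6 (C57) mice, young adults at exposure, under gnotobiotic housing to a single X-ray dose to the thorax with the rest of the body shielded (whole thorax lung irradiation, WTLI), set for each strain by its lethality, or to sham irradiation, and sequenced small RNA from lung, heart, brain, leukocytes (WBC) and erythrocytes (RBC). Only mice alive at the endpoint were sampled, at month 4 in C3H and month 6 in C57, so strain and time after exposure cannot be told apart. In lung, heart, brain and RBC the groups held 8 sham C3H, 7 irradiated C3H, 15 sham C57 and 5 irradiated C57 libraries, and in WBC they held 5, 6, 11 and 5. All C3H libraries are labelled female, although the study's methods state equal numbers of both sexes. The C57 sham mice with lung libraries were 7 females and 8 males, and the irradiated C57 group had 4 males and 1 female. Titles carry A or B as well, a letter that no source explains, and values are given within letters where these differ. Tissues were homogenised whole, so that fewer cells of a type and less RNA per cell cannot be told apart.

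A miRNA hairpin is cut from a longer transcript and yields up to a pair of mature strands, its 5p and 3p arms, of which one is usually loaded preferentially into Argonaute, the protein that uses the miRNA to repress messenger RNAs. Bases 2 to 8 of the mature strand, the seed, carry most of the target pairing. Mest (mesoderm specific transcript) is expressed from the paternal chromosome, is most active in embryonic and mesodermal tissue, and carries the miR-335 hairpin in an intron.

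The hairpin and both arms are shown because the arms were counted separately and their ratio is one of the measurements below. The hairpin lies at chr6:30741299-30741396 on the plus strand (GRCm38.p6, the assembly that mm10 names), inside the Mest gene at chr6:30723547-30748465. All 7 of the 11 annotated Mest transcripts that span it hold it in 1 shared intron, at chr6:30740825-30742140, and none has an exon there. The RefSeq sequences of this build are written 5′ to 3′. Capitals mark both mature arms in the hairpin and the seed in each arm.
Mir335 hairpin: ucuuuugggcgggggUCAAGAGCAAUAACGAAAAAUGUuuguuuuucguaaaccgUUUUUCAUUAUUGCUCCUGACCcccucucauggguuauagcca
mmu-miR-335-5p: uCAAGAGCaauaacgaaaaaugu
mmu-miR-335-3p: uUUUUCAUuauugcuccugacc
The 5p arm is 23 bases long at chr6:30741314-30741336, and the 3p arm is 22 bases long at chr6:30741354-30741375. The arms do not share a seed. Of the 1679 mature mouse miRNAs in the RefSeq table, 0 others held the seed of mmu-miR-335-5p and 0 others that of mmu-miR-335-3p.

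Library totals ran from 1794995 to 7865102 miRNA reads over the 167 libraries, and levels are given as reads per 10 to the power 6 reads of the library (RPM). In lung, heart and brain each value of the 5p arm rested on at least 109 reads and each value of the 3p arm on at least 38. Summed cardiac muscle miRNAs (miR-208a-3p, miR-499-5p, miR-1a-3p and miR-133a-3p) were higher in each of the 35 heart libraries than in any library of another tissue, and summed neural miRNAs (miR-124-3p, both arms of miR-9, miR-128-3p) likewise in the 35 brain libraries. The miR-200 family of epithelium reached 8381 to 37452 RPM in lung. In brain it varied widely between libraries, at 172 to 41037 RPM in sham C57 and 228 to 29182 RPM in sham C3H. Irradiated C3H brains held 97.6 to 12930 RPM. Erythrocyte and leukocyte miRNAs were present in both blood fractions. The erythrocyte set had a sham C3H median of 40107 RPM in WBC and 63580 RPM in RBC, and the leukocyte set 20973 and 28119 RPM. One heart library, irradiated C3H replicate 3, stood apart. Its cardiac muscle sum was 50690 RPM, against 216176 to 291001 RPM in the sham C3H hearts, and the miR-335 results that use the irradiated C3H hearts are given with and without it. Its mean correlation with the other libraries of its group (log2 RPM of the tested miRNAs) was 0.934, against 0.955 to 0.972 for the 6 others. In brain, irradiated C3H replicate 2 had 0.943 (6 others 0.969 to 0.978) and irradiated C57 replicate 5 had 0.953 (4 others 0.975 to 0.979), while sham C57 brains ran from 0.949 to 0.979.

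miR-335 levels spanned a wide range across tissues. In sham mice both arms were most abundant in brain, intermediate in lung and heart, and lowest in both blood fractions. mmu-miR-335-5p in C3H brain had a lowest value of 574, a median of 893 and a highest of 1518 RPM, and in C57 brain 343, 783 and 1062 RPM. Its rank by mean RPM in sham C3H brain was 85 among 923 detected miRNAs, and in sham C57 brain 96 among 1053. In lung the lowest, median and highest values were 157, 175 and 229 RPM in C3H and 43.1, 77.2 and 158 RPM in C57. The heart held 73.1, 117 and 176 RPM in C3H and 29.9, 73.2 and 116 RPM in C57. The brain libraries thus lay above all lung and heart libraries of sham mice, whereas lung and heart overlapped in both strains. The share of all miRNAs that separate these tissues, between libraries or within animals, was not counted.

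The less abundant arm, mmu-miR-335-3p, followed the same order. Sham brain held 275 to 409.3 RPM in C3H and 159 to 381.4 RPM in C57. Lung held 38.2 to 56.5 RPM in C3H and 14.9 to 53.1 RPM in C57, and heart 23.1 to 52.8 and 16.8 to 46.8 RPM. In WBC the 3p arm held 0.5 to 3.93 RPM in C3H and 2.56 to 13.2 RPM in C57, and the 5p arm 1.00 to 2.06 and 0.345 to 3.82 RPM. The 3p arm had more reads than the 5p arm in 10 of the 11 sham C57 libraries but in only 2 of the 5 sham C3H libraries. RBC libraries of all groups held at most 7 reads of the 5p arm and 5 of the 3p arm, and the 3 reads that a count of 0 leaves possible correspond to 0.638 to 1.19 RPM in these libraries. Neither arm passed the count filter in RBC.

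**Figure D1:**
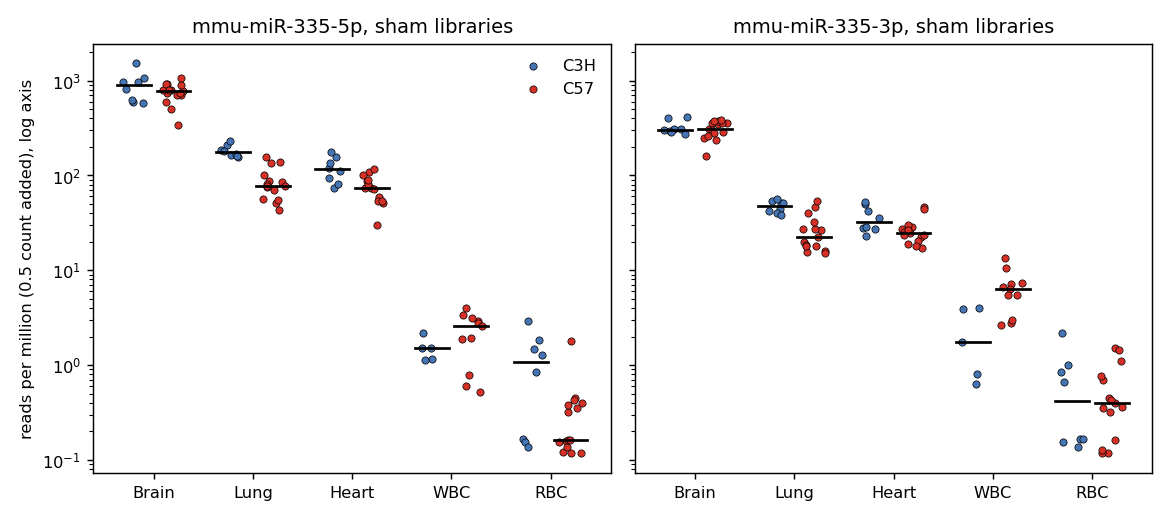
Level of each arm in every sham library by tissue, in RPM with 0.5 counts added, on a log axis. Points are libraries (blue C3H, red C57) and black bars are group medians. Brain sits highest, lung and heart overlap, WBC reaches at most 3.82 RPM of the 5p and 13.2 RPM of the 3p arm, and RBC at most 2.74 RPM of the 5p and 1.96 RPM of the 3p arm.

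Within the same sham animals, mmu-miR-335-5p was lower in lung than in brain by a mean of -2.85 ± 0.71 on the log2 RPM scale (SD, n = 23 pairs, lower in 23 of 23), a 7.20-fold difference. The permutation test (two-sided) gave p = 2e-05, the smallest it can give, and 3.81e-05 after Benjamini-Hochberg adjustment over the 10 tissue pairs. The size depended on the scaling and the strain. With TMM scaling factors over all libraries the difference was -1.75 (3.37-fold, lower in 23 of 23, permutation adjusted p = 3.81e-05), and with RPM it was 4.68-fold in C3H alone and 9.07-fold in C57 alone. Lung exceeded WBC by 6.05 ± 1.06 (SD, n = 16 pairs, higher in 16 of 16, permutation adjusted p = 3.81e-05), and WBC exceeded RBC by 2.81 ± 1.46 (SD, n = 16 pairs, higher in 15 of 16, permutation adjusted p = 0.000102), although most RBC values rested on 0 to 2 reads. The gap between lung and WBC was smaller for the 3p arm, at 3.04 ± 1.49 (8.25-fold, SD, n = 16 pairs, higher in lung in 16 of 16, permutation adjusted p = 3.39e-05), and in C57 alone it was 4.70-fold. The 5p arm was higher in lung than in heart in 16 of 23 animals, by 0.36 ± 0.68 (permutation adjusted p = 0.0172), and this order turned to -0.11 with TMM factors (adjusted p = 0.469). In C3H alone it was higher in lung in 8 of 8 animals, by 0.67 (1.59-fold, exact permutation adjusted p = 0.0130), and in C57 alone in 8 of 15, by 0.20 (permutation adjusted p = 0.318). For the 3p arm the lung minus heart difference was 0.11 ± 0.68 (permutation adjusted p = 0.435), and with TMM factors it was -0.36 (adjusted p = 0.0323). The order of lung and heart thus depended on the scaling. For the 3p arm, heart lay below brain (heart minus brain -3.44, a 10.9-fold difference) and WBC above RBC (3.46), each at a permutation adjusted p of 3.39e-05. With TMM factors the heart minus brain difference of this arm was -1.88 (3.67-fold, at the same adjusted p).

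In lung, both arms were more abundant after WTLI in both strains. mmu-miR-335-5p in sham C3H lungs had a lowest value of 157, a median of 175 and a highest of 229 RPM, and in irradiated C3H lungs 227, 652 and 880.5 RPM. The irradiated libraries lay above all sham libraries in 6 of 7 cases, and the lowest irradiated library lay just under the highest sham one. The means were 183 ± 25.3 (SD, n = 8) and 592 ± 261 RPM (SD, n = 7), a 3.24-fold difference. The rank of the 5p arm by mean RPM was 102 among 789 detected miRNAs in sham and 70 among 838 in irradiated C3H lungs. In C57 the sham lungs had 43.1, 77.2 and 158 RPM (lowest, median, highest). The 5 irradiated C57 lungs held 167, 338, 264, 140.0 and 202 RPM, of which 4 lay above all sham lungs and 1 within their range. The C57 means were 86.1 ± 34.0 (SD, n = 15) and 222 ± 79.6 RPM (SD, n = 5), a 2.58-fold difference.

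The 3p arm showed the same direction. In C3H lungs it held 38.2, 47.8 and 56.5 RPM in sham and 119, 171 and 237 RPM in irradiated mice (lowest, median, highest), with no overlap and a 3.55-fold difference of the means. Among the 350 miRNAs tested in lung, 12% had each irradiated C3H library above each sham C3H library. The C57 sham lungs held 14.9, 22.1 and 53.1 RPM, and the irradiated ones 48.5, 77.3, 87.6, 48.5 and 41.5 RPM. Of these 5, 2 lay above all sham libraries and all lay above the sham median. In C57 the corresponding share of miRNAs without overlap was 1.71%.

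**Figure D2:**
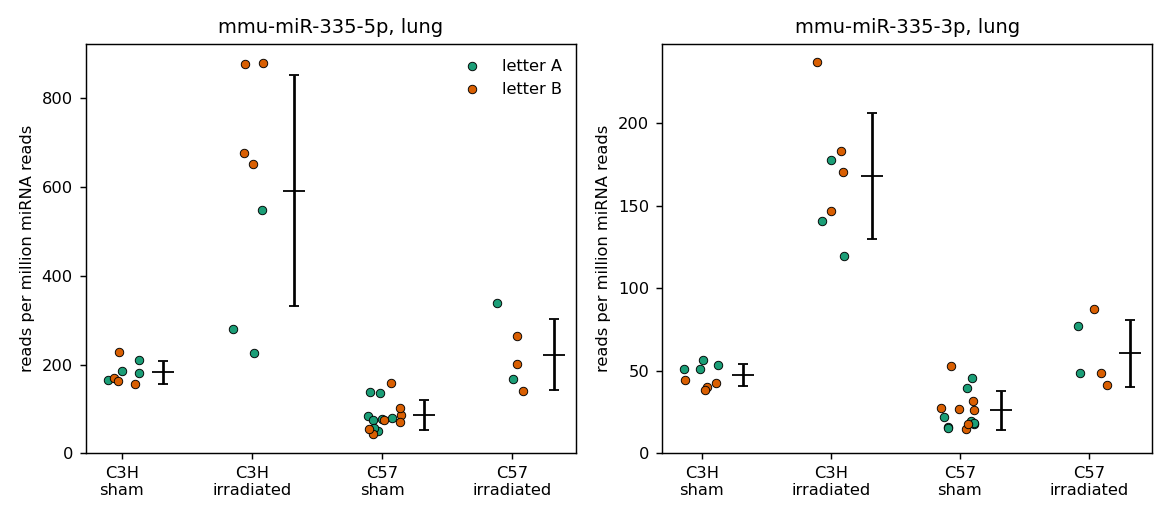
Both arms in every lung library, in RPM on a linear axis from 0. Points are libraries coloured by the letter of their title, and the bars to the right of each group are the mean ± SD. In irradiated C3H the 4 libraries of letter B hold 652 to 880.5 RPM of the 5p arm and the 3 of letter A 227 to 548 RPM.

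On the quantile-normalised log2 scale of the limma fit, the irradiated minus sham difference of mmu-miR-335-5p was 1.35 (SE 0.24) in C3H and 1.30 (SE 0.25) in C57, and that of mmu-miR-335-3p was 1.55 (SE 0.23) and 1.07 (SE 0.24). In this fit 34 of 350 miRNAs (9.71%) in C3H and 21 (6%) in C57 passed an adjusted p under 0.05 together with a log2 difference of at least 1.17 in either direction, the fold minimum used throughout. Because the arms were chosen on this contrast, these shares are given only for scale. Of the called miRNAs, 22 of 34 in C3H and 13 of 21 in C57 were higher after WTLI. The median over all 350 miRNAs was -0.08 in C3H and -0.05 in C57. With the library total as the only scaling this median moved to 0.27 and 0.12, 41 of 44 and 20 of 22 called miRNAs were higher, and the 5p differences were then 1.56 and 1.40, the 3p differences 1.81 and 1.26. The difference between the strains' responses was 0.06 (SE 0.35) for the 5p and 0.48 (SE 0.33) for the 3p arm.

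The size of the C3H difference varied with the letter. In letter A, sham lungs had a mean of 186 RPM of the 5p arm and irradiated lungs 352 RPM, and in letter B 179 and 772 RPM. The fitted differences were 0.78 (SE 0.33) in letter A and 1.76 (SE 0.29) in letter B for the 5p arm, and 1.11 (SE 0.33) and 1.93 (SE 0.30) for the 3p arm. In C57 they were 1.38 and 1.24 for the 5p arm and 1.29 and 0.88 for the 3p arm, so no letter reversed the direction. Among C57 males alone the differences were 1.12 (5p) and 0.90 (3p). Leaving out any 1 of the lung libraries gave 1.26 to 1.499 (5p, C3H), 1.19 to 1.39 (5p, C57), 1.49 to 1.64 (3p, C3H) and 0.94 to 1.22 (3p, C57).

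Markers of other cell types were read beside these values. The leukocyte set (both arms of miR-142a, miR-223-3p, miR-155-5p and miR-150-5p, all 5 tested, 0 called in either strain, none at 0 in all libraries of a group) summed to 3397 to 4826 RPM in sham and 2552 to 7019 RPM in irradiated C3H lungs. In the irradiated C3H lungs of letter A it summed to 2552 to 4029 RPM and in those of letter B to 5081 to 7019 RPM. The 5p arm held 227 to 548 RPM in letter A and 652 to 880.5 RPM in letter B of these lungs. The 3p arm held 119 to 178 and 147 to 237 RPM. The share of all miRNAs that separate these letters was not counted. In C57 lungs the leukocyte set ran from 2393 to 9748 RPM in sham and from 5564 to 6829 RPM in irradiated mice. The mesenchymal set (miR-143-3p, miR-145a-5p, both arms of miR-199a, miR-214-3p, all 5 tested, 0 called) summed to 47413 to 57360 RPM in sham and 39903 to 69762 RPM in irradiated C3H lungs, and to 48362 to 80589 and 49753 to 62839 RPM in C57 lungs. The endothelial set (2 miRNAs, 0 called) summed to 380361 to 444378 RPM in sham and 297017 to 390147 RPM in irradiated C3H lungs, the epithelial set (5, 0 called) to 12588 to 22592 and 8381 to 22738 RPM, and the erythrocyte set (4, 0 called) to 181 to 1134 and 289 to 2823 RPM. In C57 these sets also had 0 members called. Of the 4 cardiac muscle miRNAs, miR-208a-3p and miR-499-5p were called lower in irradiated C3H lungs, where the set summed to 2569 to 5226 RPM against 4759 to 7515 RPM in sham. Of the 4 neural miRNAs, miR-9-5p was called higher in irradiated C57 lungs, where the set summed to 128 to 616 RPM against 61.0 to 208 RPM. The part of these cell types in the miR-335 values was not tested.

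In heart, which lies within the irradiated field, neither arm changed past the threshold. mmu-miR-335-5p held 73.1, 117 and 176 RPM in sham and 31.1, 165 and 261 RPM in irradiated C3H hearts (lowest, median, highest), a difference of 0.29 on the log2 scale (SE 0.22, limma adjusted p = 0.335). Without replicate 3, which held the 31.1 RPM and is the heart library with few cardiac muscle reads, the difference was 0.55 (SE 0.17, adjusted p = 0.0302), still under the fold minimum. The 6 other irradiated libraries all lay above the sham median. Within letters the difference was -0.18 in A, which holds replicate 3, and 0.70 in B (limma adjusted p = 0.693 and 0.162). The 4 irradiated hearts of letter B held 164 to 174 RPM and the 4 sham hearts 73.1 to 112 RPM, without overlap, as did 15.4% of the 312 miRNAs in that direction. The 3p arm of these hearts differed by 0.71 (limma adjusted p = 0.0429, under the fold minimum). Of the marker sets, the erythrocyte set summed to 608 to 2740 RPM in sham and 331 to 1722 RPM in irradiated C3H hearts, with mmu-miR-451a called lower, and the leukocyte set to 1065 to 10253 and 833 to 2656 RPM, with mmu-miR-150-5p called lower (-1.63, and -1.55 without replicate 3). The mmu-miR-451a difference was -1.33, and without replicate 3 it was -1.12 with no call (limma adjusted p = 0.0875). The other sets had 0 members called, and the part of these cell types in the heart values was not tested.

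The C57 hearts gave 29.9, 73.2 and 116 RPM of the 5p arm in sham mice. The 5 irradiated ones held 80.5, 80.8, 108, 90.7 and 101 RPM, above the sham median in 5 of 5 and above all sham hearts in 0. The first 4 were males and the last a female. The 8 sham males held 73.2 to 116 RPM and the 7 sham females 29.9 to 71.6 RPM, so the sham median was the lowest male value. The irradiated males lay within the range of the sham males. Over both sexes the irradiated minus sham difference was 0.34 (SE 0.23, limma adjusted p = 0.512). For the 3p arm the heart differences were 0.29 (SE 0.19, adjusted p = 0.275) in C3H, or 0.48 (limma adjusted p = 0.0584) without replicate 3, and -0.13 (SE 0.20, adjusted p = 0.795) in C57. Across heart, 21 of 312 miRNAs (6.73%) in C3H and 3 (0.962%) in C57 were called. The strain by irradiation interaction was -0.05 (5p, adjusted p = 0.949) and 0.43 (3p, adjusted p = 0.373), with 0% of miRNAs called by limma, 0 by edgeR and 2 by DESeq2 (51 at an unadjusted p under 0.05). Without replicate 3 the interaction was 0.21 for the 5p arm, the opposite sign, and 0.61 for the 3p arm (limma adjusted p = 0.653 and 0.260).

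Brain, shielded during exposure, held the most miR-335, and its amount did not change past the threshold. The 5p arm had 574, 893 and 1518 RPM in sham and 262, 997 and 1162 RPM in irradiated C3H brains, a difference of -0.01 (SE 0.29, limma adjusted p = 0.997). Without the single library at 262 RPM, replicate 2, it was 0.27 (adjusted p = 0.986). The C57 sham brains had 343, 783 and 1062 RPM. The 5 irradiated C57 brains held 658, 628, 571, 712 and 184 RPM, all of them under the sham median, a difference of -0.52 (SE 0.30, limma adjusted p = 0.486). Without the lowest of these, replicate 5 and the only female, it was -0.15 (adjusted p = 0.889). The 3p arm differed by -0.11 in each strain (SE 0.19 in both, adjusted p = 0.997 and 0.826), and this turned to 0.034 in C3H without replicate 2 and to 0.16 in C57 without replicate 5. In brain limma called 0% of the miRNAs tested in C3H, in C57 or in the interaction, which was 0.51 (5p) and 0.01 (3p) for the arms. At an unadjusted p under 0.05 these contrasts held 9, 53 and 21 miRNAs, edgeR called 0 in each, and DESeq2 called 0, 2 and 0.

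Both arms rested on few reads in WBC. Reads of the 5p arm numbered 4 to 10 in sham and 1 to 8 in irradiated C3H libraries, and 1 to 15 in sham and 2 to 7 in irradiated C57 libraries. The 3p arm had 2 to 18, 0 to 12, 7 to 34 and 4 to 23 reads in the same order. All 4 fitted differences were under 0 (-0.52 and -0.68 for the 5p arm in C3H and C57, -0.19 and -0.77 for the 3p arm), and the limma adjusted p ran from 0.801 to 0.991. All 5 irradiated C57 libraries lay under the sham median for both arms. In WBC 0% of the 291 miRNAs tested were called in either strain or in the interaction by limma, edgeR or DESeq2, with 20, 12 and 5 at an unadjusted limma p under 0.05.

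**Figure D3:**
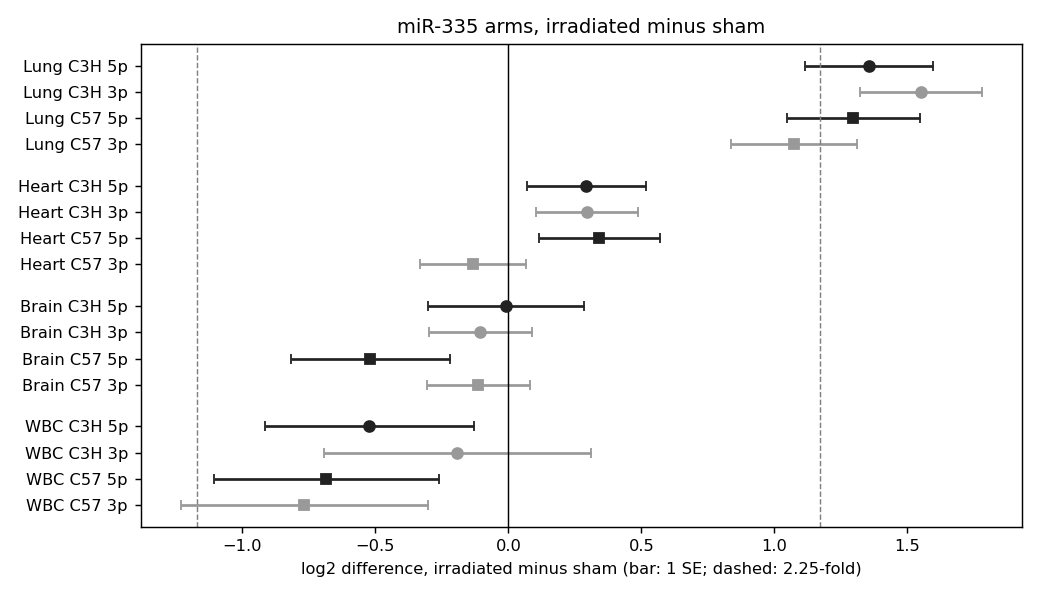
Irradiated minus sham difference of each arm by tissue and strain on the quantile-normalised log2 scale (circles C3H, squares C57, black 5p, grey 3p, bars 1 SE). Dashed lines mark the fold minimum, a log2 difference of 1.17. The 4 lung differences lie between 1.07 and 1.55, and all others between -0.77 and 0.34.

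Sham mice of the strains differed in lung miR-335. Since all C3H libraries are labelled female, females were compared. The 5p arm held 157 to 229 RPM in the 8 C3H and 43.1 to 102 RPM in the 7 C57 sham females, without overlap, and was lower in C57 by a log2 difference of -1.43 (SE 0.25, limma adjusted p = 6.91e-05). The 3p arm held 38.2 to 56.5 and 14.9 to 31.8 RPM, also without overlap, and differed by -1.20 (SE 0.21, limma adjusted p = 6.34e-05). Each C3H female lay above each C57 female for 3.78% of the 397 miRNAs tested, and 22 of them (5.54%) were called in either direction. Both calls were kept by edgeR, DESeq2, both other voom scalings and with the letter as a covariate. Within letters the 5p difference was -1.29 in A and -1.59 in B. The 3p difference was -1.50 in A and -0.91 in B, and the last of these lay under the fold minimum (adjusted p = 0.0305). In these lungs the epithelial set summed to 12588 to 22592 RPM in C3H and 19709 to 32852 RPM in C57 females, the mesenchymal set to 47413 to 57360 and 48630 to 80589 RPM, and the leukocyte set to 3397 to 4826 and 2393 to 3833 RPM, each with 0 members called. In the cardiac muscle set, at 4759 to 7515 and 2724 to 5974 RPM, miR-133a-3p and miR-499-5p were called lower in C57, and the erythrocyte, endothelial and neural sets had 0 called. The part of these cell types in the strain difference was not tested. The irradiated C57 lungs, at 140.0 to 338 RPM of the 5p arm, thus overlapped with the sham C3H lungs.

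The strain difference was also read in heart, brain and WBC, and whether it differed between tissues was not tested. In heart the 5p arm held 73.1 to 176 RPM in C3H and 29.9 to 71.6 RPM in C57 females, without overlap, where 7.36% of the 367 miRNAs had each C3H female above each C57 female. By letter, C3H females held 121 to 176 RPM in A and 73.1 to 112 RPM in B, and C57 females 51.5 to 59.6 and 29.9 to 71.6 RPM. The log2 difference was -0.87 (SE 0.22, limma adjusted p = 0.00493), under the fold minimum, while 11.4% of miRNAs were called, of which 17 of 42 were higher in C57 (5 of 47 with library totals alone). The erythrocyte set of these hearts summed to 608 to 2740 RPM in C3H and 340 to 704 RPM in C57 females, with 2 of 4 members called lower in C57. Also called lower were miR-208a-3p of the cardiac muscle set (216176 to 291001 and 222477 to 298863 RPM) and miR-141-3p of the epithelial set (87.4 to 942 and 52.2 to 302 RPM). The mesenchymal set summed to 41644 to 81090 and 36273 to 44262 RPM with 0 called, and the leukocyte, endothelial and neural sets had 0 called. The part of these cell types was not tested. The 3p arm of the heart differed by -0.13 (adjusted p = 0.656). In brain the differences were -0.39 (5p, adjusted p = 0.308) and -0.33 (3p, adjusted p = 0.111), with 3.04% of miRNAs called. The brain value depended on the letter, at 0.47 in A (adjusted p = 0.402) and -1.40 in B (adjusted p = 5.41e-06). In WBC the 5p arm was called lower in C57 females (-1.87, SE 0.43, limma adjusted p = 0.00295, with 16.1% of miRNAs called, 31 of 55 higher in C57, and 90 of 96 with library totals alone), but the 4 C57 libraries held 3, 1, 1 and 9 reads and the 5 C3H libraries 4 to 10. edgeR (adjusted p = 0.0754), DESeq2 (0.117) and scaling by the library total (0.296) did not keep this call. The 3p arm went the other way in WBC, at 0.61 (SE 0.55, limma adjusted p = 0.438).

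Between the sexes of sham C57 mice no call was made for either arm in lung, heart or brain. The 5p arm held 43.1 to 102 RPM in 7 females and 50.9 to 158 RPM in 8 males (-0.51, SE 0.26, limma adjusted p = 0.190), and the 3p arm 14.9 to 31.8 and 15.8 to 53.1 RPM (-0.69, SE 0.21, adjusted p = 0.0409, under the fold minimum). Here 2.27% of miRNAs were called in lung. In heart each of the 7 females, at 29.9 to 71.6 RPM of the 5p arm, lay under each of the 8 males, at 73.2 to 116 RPM, as did 18.8% of the 367 miRNAs. The fitted difference was -0.41 (SE 0.22, adjusted p = 0.135) for the 5p and 0.22 (SE 0.20, adjusted p = 0.387) for the 3p arm. In this contrast 10.1% of miRNAs were called, 14 of 37 of them higher in females, and with library totals alone 2 of 54, while the median of all miRNAs moved from 0.06 to -0.31 and the 3p difference to -0.19. In brain they were -0.20 (5p, adjusted p = 0.587) and -0.43 (3p, adjusted p = 0.0353, under the fold minimum), with 4.87% called. In WBC the 5p arm was called lower in the 4 females than in the 7 males (-1.48, SE 0.41, limma adjusted p = 0.0284, 7.62% called) at 1 to 9 against 7 to 15 reads. This call was not kept by edgeR (adjusted p = 0.117), DESeq2 (0.0990) or TMM scaling (0.0713), and the 3p arm differed by -0.0078 there (SE 0.51, limma adjusted p = 0.994). The adjusted p of the 3p arm in lung was 0.0604 with TMM scaling.

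**Figure D4:**
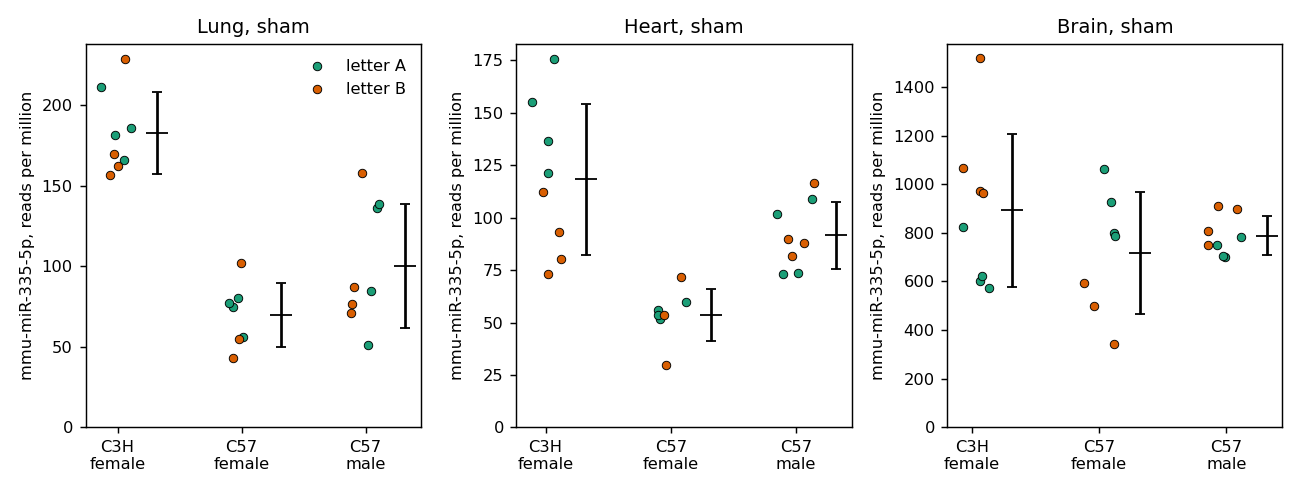
mmu-miR-335-5p in every sham library of lung, heart and brain by strain and sex, in RPM on a linear axis from 0. Points are libraries coloured by the letter of their title, and bars are the mean ± SD. In lung the 8 C3H females (157 to 229 RPM) lie above the 7 C57 females (43.1 to 102 RPM).

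The balance of the arms differed by tissue. It was measured as the log2 ratio of 5p to 3p reads within a library (0.5 added to each), which does not depend on the library total. In sham lungs the ratio was 1.95 ± 0.27 (SD, n = 8) in C3H and 1.73 ± 0.24 (SD, n = 15) in C57, in heart 1.72 ± 0.25 and 1.47 ± 0.56, and in brain 1.40 ± 0.46 and 1.28 ± 0.27. All of these libraries held more 5p than 3p reads. In sham WBC it was -0.23 ± 1.27 (SD, n = 5) in C3H and -1.64 ± 1.01 (SD, n = 11) in C57, where 10 of 11 libraries held more 3p reads. In C3H 2 of 5 did, and the C3H median was 0.30. Within the same animals the ratio was higher in lung than in brain by 0.48 ± 0.27 (SD, n = 23 pairs, higher in 22 of 23, permutation adjusted p = 7.63e-05) and higher in brain than in WBC by 2.49 ± 1.21 (SD, n = 16 pairs, higher in 16 of 16, permutation adjusted p = 7.63e-05). Lung and heart differed by 0.25 ± 0.58 (permutation adjusted p = 0.0637), and heart and brain by 0.23 ± 0.61 (permutation adjusted p = 0.0948). The WBC ratios rest on 1 to 15 reads of the 5p arm.

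After WTLI the ratio was lower in C57 brain. The 5 irradiated brains had 0.78 ± 0.20 (SD) and the 15 sham brains 1.28 ± 0.27, a difference of -0.50, with 5 of 5 irradiated libraries under the sham median and 4 under all sham libraries (exact permutation test, two-sided, p = 0.000516, and 0.00413 after adjustment over 8 comparisons). It remained at -0.45 to -0.58 when any 1 irradiated library was left out (adjusted p = 0.00413 to 0.0165). Among males alone it was -0.35 (exact permutation, p = 0.0162, adjusted p = 0.0646), and within letters -0.64 in A and -0.37 in B, with 2 and 3 irradiated libraries. Neither arm alone changed past the threshold in this tissue. The summed epithelial miRNAs of these brains (5 tested, 0 called) had a median of 1814 RPM in sham and 213 RPM in irradiated C57 mice, with ranges of 172 to 41037 and 166 to 2953 RPM. The neural set (4 tested, 0 called) ran from 123050 to 165708 and from 127209 to 154104 RPM. The part of these cell types in the ratio was not tested.

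No such difference was seen in C3H brain (0.04, exact permutation adjusted p = 0.873), where the ratio went with the letter instead. Letter A held 0.98 ± 0.07 in sham (SD, n = 4) and 1.10 ± 0.30 in irradiated brains (SD, n = 3), and letter B 1.83 ± 0.12 and 1.70 ± 0.37 (SD, n = 4 each). Among sham brains the 5p arm had means of 655 RPM in A and 1129 RPM in B, and the 3p arm 331 and 316 RPM. In C57 brain the letters of the sham mice were closer, at 1.38 ± 0.34 and 1.16 ± 0.10. In heart the ratio differed between irradiated and sham mice by 0.25 in C3H and 0.51 in C57 (exact permutation adjusted p = 0.398 and 0.145), the C3H value being 0.36 without replicate 3 (adjusted p = 0.109) and the C57 value 0.13 among males alone (exact permutation p = 0.582), and in WBC by -0.39 and 0.14 (0.873 in both). RBC libraries with a read of either arm gave a difference of 2.43 in C57 (exact permutation adjusted p = 0.0284), which rested on at most 6 reads of an arm per library, and the adjusted p was 0.0659 to 0.0967 without replicate 2, 3, 4 or 5. In lung, as a description, the ratio was 1.69 ± 0.56 after WTLI against 1.95 ± 0.27 in C3H, and 1.86 ± 0.33 against 1.73 ± 0.24 in C57. Among the irradiated C3H lungs, those with the lowest ratios, 0.69 and 1.23, were of letter A and held the least 5p arm.

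**Figure D5:**
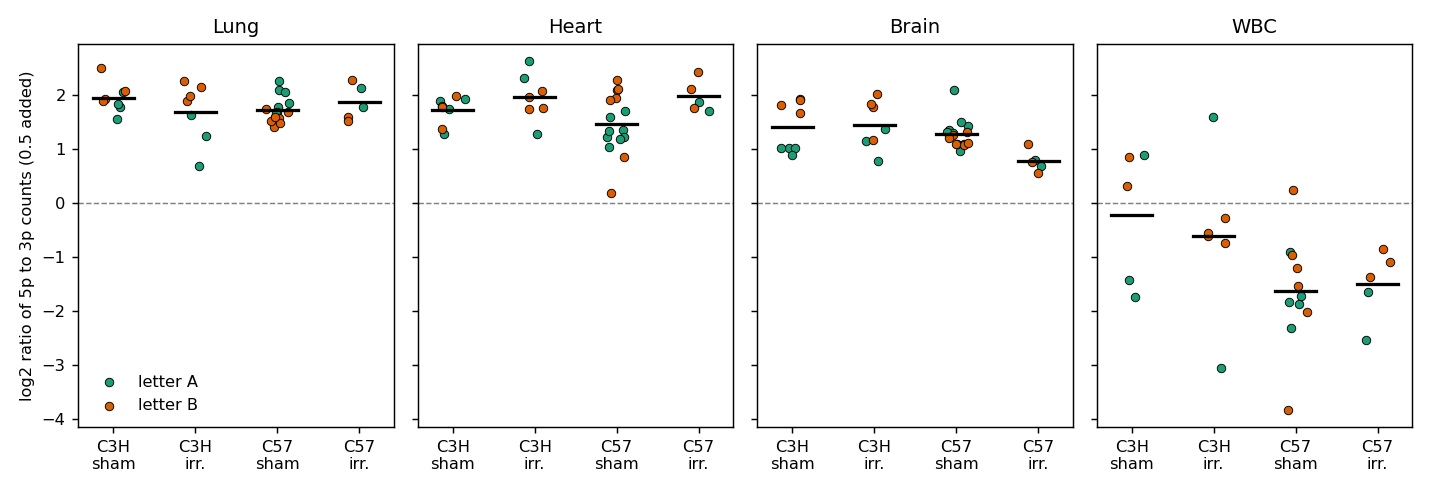
Log2 ratio of 5p to 3p reads in every library of lung, heart, brain and WBC by strain and treatment (irr., irradiated). Points are libraries coloured by the letter of their title, black bars are means, and the dashed line marks equal reads of both arms. Irradiated C57 brains sit lowest among the brain groups, at a mean of 0.78, and most WBC libraries lie under 0.

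The arms were correlated between libraries of one group. Over the within-group deviations of log2 RPM, their Pearson correlation was 0.77 in lung, 0.67 in heart and 0.78 in brain (Spearman 0.74, 0.56 and 0.41), each over 35 libraries whose 2 values share the library total. Without irradiated C3H replicate 3 the heart correlation was 0.44 (Spearman 0.42, 34 libraries). The brain value includes irradiated C3H replicate 2, at 262 and 153 RPM (5p and 3p), and irradiated C57 replicate 5, at 184 and 126 RPM. Each was the lowest of its group in both arms, and the brain correlation without them was not computed. Of the 396 other miRNAs tested in lung, those closest to mmu-miR-335-5p over the 20 group means of log2 RPM were mmu-miR-125a-3p (Pearson r = 0.986), mmu-miR-187-3p (0.984), mmu-miR-125b-1-3p (0.981), mmu-miR-100-5p (0.980) and mmu-miR-29c-5p (0.979), and mmu-miR-335-3p was in place 11 (0.974). These correlations follow the order of the tissues. None of the 5 was called in irradiated lung, where their differences ran from -0.36 to 0.68. Over the within-group deviations in the 35 lung libraries the closest were mmu-miR-210-3p (0.792), mmu-miR-335-3p (0.774), mmu-miR-142a-5p (0.723), mmu-miR-301a-3p (0.710) and mmu-miR-223-3p (0.707). mmu-miR-142a-5p and mmu-miR-223-3p belong to the leukocyte set above, and their lung differences were 0.18 and 0.09 in C3H and 0.79 and 0.38 in C57. Those of mmu-miR-210-3p were -0.45 and -0.16 (C3H and C57) and those of mmu-miR-301a-3p were -0.18 and 0.12, and none of these 4 miRNAs was called.

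Other miRNAs of imprinted loci were read from 2 lists. The first held both arms of miR-296 and miR-298 (Gnas locus), miR-483 (Igf2) and miR-675 (H19), which like Mest are expressed from one parental copy. None of these 8 passed the count filter in lung or heart, where their group means stayed at or under 1.08 RPM. In brain mmu-miR-296-5p, mmu-miR-296-3p and mmu-miR-298-5p were tested, and their differences of 0.47, 0.08 and 0.06 in C3H and -0.24, 0.19 and 0.04 in C57 passed no threshold (limma adjusted p = 0.997 for each in C3H and 0.646 to 0.957 in C57). In WBC mmu-miR-296-5p differed by -0.47 and -0.96 (adjusted p = 0.938 and 0.862).

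The second list held 109 mature miRNAs of the Dlk1-Dio3 cluster, which is expressed from the maternal chromosome. In lung 24 of them were tested. Of these, 5 were called higher and 0 lower in C3H, and 3 higher and 0 lower in C57, beside 22 higher (6.29%) and 12 lower, and 13 higher (3.71%) and 8 lower, among all 350. The list's median difference was 0.57 in C3H and 0.55 in C57, against -0.08 and -0.05 over all miRNAs tested, and 19 and 22 of the 24 lay above 0. The count in C57 was 0 among males alone, where the count over all miRNAs is not given. With library totals alone the counts were 11 in C3H and 3 in C57, beside 41 and 20 higher among all 350. In heart 1 of 24 was called higher in C3H and 0 in C57, beside 15 (4.81%) and 3 (0.962%) among all 312, with list medians of 0.31 and -0.04. In brain 0 of 67 were called in either strain, as were 0 of all those tested, with medians of 0.01 and 0.08. The lung differences of the miR-335 arms, 1.07 to 1.55, lay within the range of this list, from -0.57 to 1.64 in C3H and -0.48 to 1.45 in C57.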

How the data were processed

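Per the study's methods, the authors made QIAseq miRNA libraries, trimmed reads and aligned them to mouse miRNAs (mm10) in BaseSpace, and left out runs with few miRNA reads. For each library the deposited values are unnormalised read counts over 1915 mature miRNAs. Whether molecular identifiers were counted was not stated, so intervals and floors cover counting error only. All 167 libraries of 35 animals were used. Libraries of a group differed beyond sampling noise (smallest chi-square per degree of freedom 15.5).

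The members, lists, markers and tests were chosen with earlier results of these data known. The genes named are the 2 arms, the listed miRNAs of imprinted loci other than Dlk1-Dio3, members of the marker sets, and the 5 miRNAs closest to the 5p arm by each of 2 correlations. After filterByExpr (edgeR 4.0.16, count minimum 10, total minimum 15), counts were transformed by voom to log2 RPM with quantile normalisation and fitted in R 4.3.3 with limma 3.58.1, 1 model per tissue with 4 groups (6 with sex for sham contrasts). Adjusted p-values are Benjamini-Hochberg over the miRNAs tested in a tissue. To be called, a miRNA had to pass an adjusted p of 0.05 and a log2 difference of 1.17 in size. Replicates are separate mice. Levels in tissues of the same animal, and arm ratios, were compared by permutation (SciPy 1.17.1, exact or 100000 resamples). Tests on simulated counts covered the irradiated against sham fits in lung, heart, brain and WBC. edgeR, DESeq2 1.42.0, other scalings, filters, covariates and sample subsets were tried as alternatives. Plasma was not analysed here.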

Additional observations from a re-analysis of the deposited data

Results flagged for a closer look

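Within groups of 4 to 10 libraries, the gap between the lowest or highest library and its neighbour was compared with the group's range (Dixon's criterion on log2 RPM). Of 36 groups and measures examined, 4 had a library past the critical value, where chance gives about 1 in 20. In each case the library was the lowest. mmu-miR-335-5p was at 8.036 on the log2 RPM scale (262 RPM) in brain of irradiated C3H replicate 2, with a gap of 0.779 of the range. In brain of irradiated C57 replicate 5, the only female of that group, mmu-miR-335-5p was at 7.525 (184 RPM, gap 0.837) and mmu-miR-335-3p at 6.976 (126 RPM, gap 0.863), so both arms were low in the same library. mmu-miR-335-5p was at 4.966 (31.1 RPM, gap 0.772) in heart of irradiated C3H replicate 3, the library with the low cardiac muscle sum. The mean correlation of these 3 libraries with the others of their group was 0.943, 0.953 and 0.934 (irradiated C3H brain 2, irradiated C57 brain 5, irradiated C3H heart 3), the lowest of each group, and the part of library quality in these values was not tested.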

How the results depend on the processing

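The lung differences of both arms and the lung strain difference kept their direction under each alternative run. Letter subsets for the sham contrasts, C57 males alone for the arm ratio, its leave-one-out values and the heart interaction and arm correlation without replicate 3 were chosen after seeing the data, and the causes of the changes below were not tested. Same-numbered tissues come from the same animal. In a joint model with the animal as replicate block, the lung differences were 1.42 and 1.63 (5p and 3p, C3H) and 1.31 and 1.08 (C57). The block changed no call of the arms. It brought the Dlk1-Dio3 count in C3H heart from 1 to 2, and the count over all miRNAs of that model is not given. Several differences changed sign. edgeR and DESeq2 gave 0.046 and 0.055 (5p) and 0.0064 and 0.013 (3p) in C3H brain, 0.026 and 0.038 (3p) in C57 brain, -0.019 and -0.025 for the 3p brain interaction (-0.032 with library totals), 0.0076 and 0.0080 for the 5p brain sex difference, and 0.25 and 0.24 for the 5p heart interaction (0.10 with TMM, 0.21 without irradiated C3H replicate 3). Library totals gave -0.067 (3p) and -0.52 (5p) for the WBC interaction and -0.19 for the 3p heart sex difference, TMM gave -0.26 for the 5p WBC interaction, and C57 males alone gave 0.022 for the 3p arm in heart. Letter A gave 0.29 (3p, C57 brain), -0.26 and -0.18 (3p and 5p, C3H heart), 0.35 and -0.040 (5p brain and 3p heart, sex), and 0.47 and -0.49 (5p brain and 3p WBC, strain). Letter B gave 0.023 (3p, C3H brain), 0.53 (3p, C3H WBC) and 0.56 (3p WBC, sex) and, with the sign kept, gained a call at -1.40 (5p brain, strain) and lost one at -0.91 (3p lung, strain). The WBC 5p calls were lost with edgeR (-1.12 sex, -1.29 strain), DESeq2 (-1.23 for both), TMM (-1.18, sex), library totals (-0.76, strain), letter A (-1.35 sex, -2.13 strain) and letter B (-1.32 sex, -1.72 strain). Lung minus heart was -0.11 (5p) and -0.36 (3p) with TMM, 0.20 and -0.063 in C57 alone, 0.28 and -0.11 in letter A, 0.46 (5p) in letter B and 0.44 (3p) in C3H alone. In C3H alone, 5 pairs cannot go below p = 0.0625, and the differences were 7.07, 6.36, 9.20 and 2.04 (5p) and 4.83, 4.48, 7.62 and 2.95 (3p) for lung, heart and brain minus WBC and WBC minus RBC. The ratio of lung minus heart was 0.39 in letter A (permutation adjusted p = 0.0138) and 0.098 in letter B (permutation adjusted p = 0.656). The change of the ratio after WTLI was -0.13 (C3H brain, letter B), -0.64, -0.37 and -0.35 (C57 brain, letter A, letter B, males), -0.62 (C3H lung, letter A), 0.61 (C3H RBC, letter A), 1.38, 3.22 and 2.10 (C57 RBC, letter A, letter B, males), 0.025 and 0.18 (C3H WBC, letter A and a 10-read minimum), and -0.36, -0.28 and -0.45 (C57 WBC, letter A, 10-read minimum, males). With the sign kept, this change of the ratio in letter B was -1.13 in C3H WBC (4 irradiated and 2 sham libraries) and -1.23 in C3H RBC (2 and 3). Leaving out 1 library gave -0.17 to 0.034 (3p) and -0.084 to 0.27 (5p) in C3H brain, -0.23 to 0.16 (3p) in C57 brain and -0.41 to 0.14 (3p) in C3H WBC. For the ratio it gave -0.061 to 0.15 (C3H brain), -0.83 to 0.10 (C3H WBC), -0.027 to 0.39 (C57 WBC), -1.02 to 0.0035 (C3H RBC) and 2.24 to 2.82 (C57 RBC). In WBC and RBC, single reads limit what can be seen.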
